A study of Mus musculus with 26 samples.

Results

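Cluster 9 of the single-cell survey of mouse RPE/choroid (the retinal pigment epithelium with the vascular layer behind it) held the cells that the study names smooth muscle cells (SMCs). Its members were all cells to which the deposited metadata gave cluster 9 of 13, which came to 836 of 7565 cells. They were 373 of 3637 cells (10.3%, exact Clopper-Pearson 95% interval 9.29 to 11.3) in the B6129PF1/J library and 463 of 3928 cells (11.8%, 10.8 to 12.8) in the C57BL/6J library. Each library was made with 10x Genomics droplets from cells of untreated 3-month-old mice of 1 strain, a male eye and a female eye pooled, after sorting of living nucleated cells. Bulk RNAseq of RPE/choroid was used beside it, from 6-month-old C57BL/6J mice in which *Ihh* (Indian hedgehog) had been deleted in endothelial cells (ECs) and from wild type mice. Both tissue groups carried Cdh5-PAC-CreERT2, a recombinase under the promoter of an EC cadherin, and both had received tamoxifen 12 weeks before collection. Bulk RNAseq of cultured choroidal GLI1+ cells from Gli1GFP/+ mice (SWR/J by the labels, crossed with BALB/c by the methods) is given last. These cells had been treated for 24 h with DMSO or with 100 nM SAG, an agonist of the Hedgehog pathway. Levels in cells are given as the UMIs (unique molecules) of a gene summed over the cells of a cluster, per 10,000 UMIs of all genes in those cells, with exact Poisson 95% intervals in brackets. There was 1 library per strain, and clusters were found on the genes compared, so no test was made, and all intervals cover counting error only. Pairs of values give B6129PF1/J first and C57BL/6J second.

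SMCs form the contractile wall of arteries and arterioles and set vessel diameter. Calcium that enters through voltage-gated channels or leaves internal stores activates myosin light chain kinase, and phosphorylated myosin then pulls on smooth muscle actin. Pericytes, the mural cells of capillaries, share many genes with SMCs and carry less of the contractile apparatus. In many SMC genes, serum response factor and its coactivator myocardin act through a short promoter element, the CArG box.

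The label was set beside the levels of *Acta2* (smooth muscle actin), *Tagln* (transgelin, an actin-binding protein) and *Myh11* (smooth muscle myosin heavy chain). *Acta2* stood at 132 [131 to 134] in cluster 9 of B6129PF1/J and at 142 [140 to 144] in that of C57BL/6J, and cluster 9 held 90.1% and 92.5% of all *Acta2* UMIs of the libraries. The next cluster was cluster 6, a stromal cluster, with 7.88 [7.50 to 8.27] and 5.18 [4.86 to 5.51]. *Tagln* stood at 38.9 and 39.0 in cluster 9 and at 4.28 and 2.64 in cluster 6. *Myh11* stood at 16.6 and 13.1 in cluster 9 and at 0.798 and 0.605 in cluster 6. No other cluster reached the cluster 9 level of any of these 3 genes. The study named its clusters by known markers in these same cells, so this describes the label and does not test it. At least 1 UMI of *Acta2* was found in 99.2% and 98.9% of cluster 9 cells, which had a median of 4635 and 3803 UMIs. RPE cells had one in 61.7% and 51.1% of cells, at a median of 5263 and 3406.5 UMIs and a level of 2.16 and 2.75. The share was 35.1% and 29.7% in cluster 6 and 7.57% and 9.68% in the EC cluster 2. It thus differed widely between the other clusters, and the source of the *Acta2* UMIs in RPE cells was not tested. A single *Acta2* UMI therefore did not mark a cell as SMC here, whereas *Myh11* was found in 93.3% and 90.9% of cluster 9 cells and in 2.70% and 1.87% of RPE cells.

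**Figure D1:**
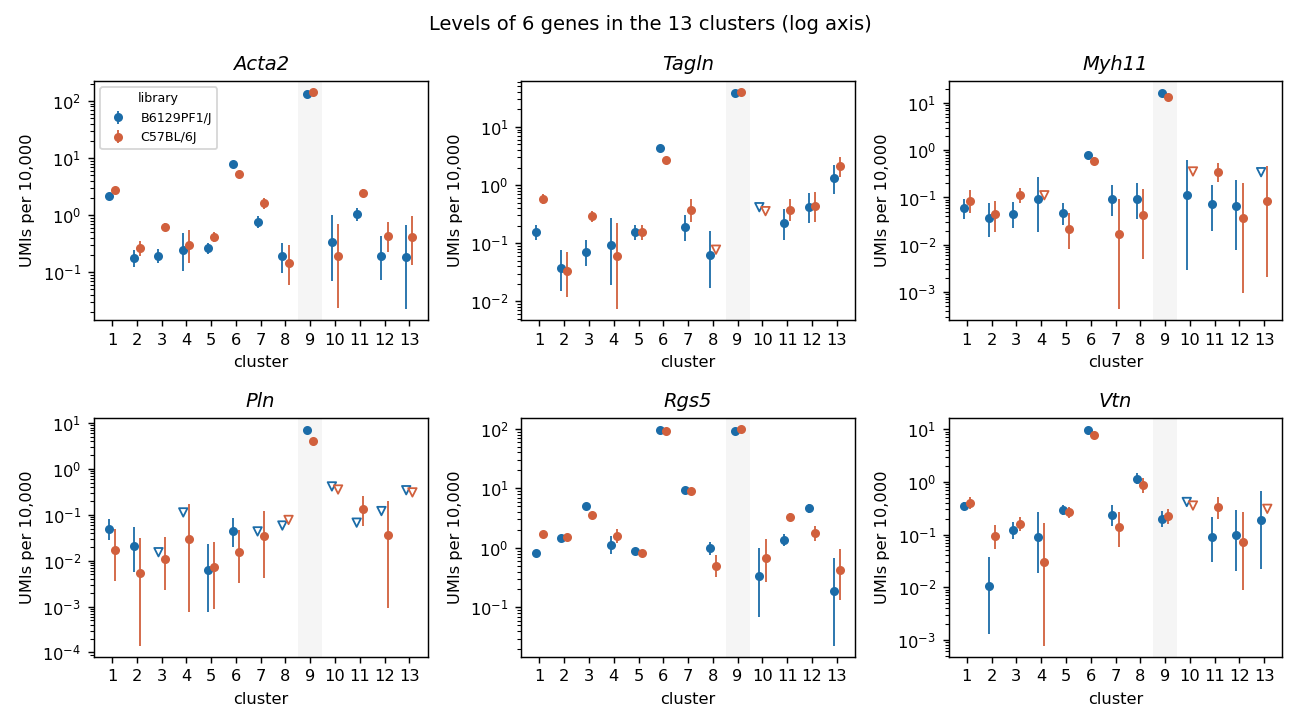
UMIs per 10,000 of *Acta2*, *Tagln*, *Myh11*, *Pln*, *Rgs5* and *Vtn* in each of the 13 clusters on a log axis, 1 colour per library, with Poisson 95% intervals as bars, open triangles for the upper limit of a count of 0 and cluster 9 shaded. The first 4 genes peak in cluster 9, *Rgs5* is about level in clusters 9 and 6, and *Vtn* peaks in cluster 6.

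Markers of other cell types were low in cluster 9. The 9 EC markers summed to 3.12 and 4.25 (192.7 and 192.2 in the highest cluster), the 7 RPE markers to 11.2 and 4.49 (1457 and 1366), the 5 melanocyte markers to 0.254 and 0.151 (577 and 569), the 7 hematopoietic markers to 0.237 and 0.301 (484 and 424) and the 6 Schwann cell markers to 0.355 and 0.234 (539 and 420). Markers of photoreceptors, skeletal muscle and erythrocytes did not pass 0.062 in sum. The libraries held 17168578 and 15230413 UMIs, of which cluster 9 had 1774941 and 1792357. The 2 libraries shared 22 cell barcodes, 0 of them between their cluster 9 cells. Cells with 2 or more UMIs of 2 or more markers of another type, or with UMIs of both *Xist* and *Ddx3y*, numbered 19 (5.09%) and 14 (3.02%) in cluster 9 and may be doublets. The share of UMIs from mitochondrial genes had a median of 6.24% (quartiles 4.66 to 7.81) and 5.22% (4.09 to 6.46) in cluster 9, which was the highest of the 13 clusters in both libraries. Cluster 10 came next with 5.07% and 5.13%, cluster 6 had 3.40% and 3.29%, and the lowest clusters had 1.14% and 1.21%. With mitochondrial UMIs left out of the totals, *Acta2* stood at 141.5 and 150.4 in cluster 9.

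**Figure D2:**
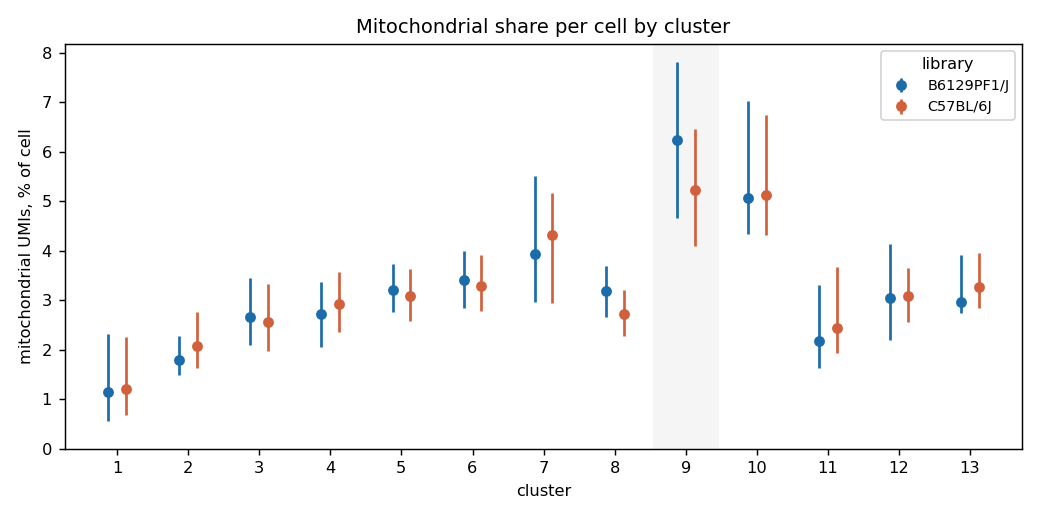
Share of UMIs from mitochondrial genes per cell in each of the 13 clusters, in percent, with the median as a point and the quartiles as bars, 1 colour per library. Cluster 9 has the highest median in both libraries, 6.24% and 5.22%.

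CArG boxes were sought in the RefSeq promoter windows (300 bases, from 250 before to 50 after the start site, build GRCm38.p6; the box is 10 bases long and its own reverse complement in form, so both strands were covered). Of 18 listed genes of the contractile apparatus, 15 had a window and 3 of these held a box (20.0%): *Myl9*, *Myl6* and *Vcl*. The genes with no window were *Tagln*, *Myh11* and *Actg2*. Of the 15 genes that stood out most from every other cluster by the ranking given further on, 12 had a window and 2 held a box (16.7%): *Fbxl22* and *Asb2*. Of 9 pericyte markers with a window, 0 held one. A box was found in 17 of 358 windowed genes that were highest in cluster 9 (4.75%), in 194 of 11872 genes of the count tables (1.63%) and in 535 of all 32851 windows (1.63%). The boxes of *Myl9*, *Myl6*, *Vcl* and *Fbxl22* all began with CC, ended with GG and held only A and T between. *Acta2* had a window and no match. Whether genes without a match hold a box of looser form, or one outside the window, was not tested. A match is a description of these letters and no site of binding. The sequences of 3 of these genes are shown, 5′ to 3′ on the strand of the gene, as the 250 bases before the start site with the box in capitals. *Myl9* (a regulatory light chain of myosin) is on the plus strand at chr2:156775214-156775463 with the box starting 161 bases before the start site, *Myl6* (an essential light chain) on the minus strand at chr10:128493010-128493259 with the box 50 bases before it in 1 of its 2 windows, and *Fbxl22* (an F-box protein of muscle) on the minus strand at chr9:66514594-66514843 with the box 222 bases before it.
Myl9: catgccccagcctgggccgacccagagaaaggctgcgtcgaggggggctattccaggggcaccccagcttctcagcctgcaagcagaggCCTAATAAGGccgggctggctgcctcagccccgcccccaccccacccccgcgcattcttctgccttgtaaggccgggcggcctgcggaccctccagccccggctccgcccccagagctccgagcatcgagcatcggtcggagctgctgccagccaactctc
Myl6: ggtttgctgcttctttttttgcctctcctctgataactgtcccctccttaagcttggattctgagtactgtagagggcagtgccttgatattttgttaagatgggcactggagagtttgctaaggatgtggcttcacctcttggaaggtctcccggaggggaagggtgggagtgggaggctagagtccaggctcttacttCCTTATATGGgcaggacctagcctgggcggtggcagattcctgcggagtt
Fbxl22: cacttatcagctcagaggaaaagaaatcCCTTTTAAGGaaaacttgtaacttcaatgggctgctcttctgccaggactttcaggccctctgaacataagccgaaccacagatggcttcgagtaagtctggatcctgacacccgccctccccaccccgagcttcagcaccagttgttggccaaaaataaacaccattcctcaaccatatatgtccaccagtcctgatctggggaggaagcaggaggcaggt

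Cluster 9 was compared with cluster 6 first, the cluster nearest to it in mural genes. A gene was called higher or lower when its ratio reached 2 in both libraries, among genes with at least 20 UMIs in the 2 clusters together in each library. The cells were clustered on these same genes, so the comparison describes what separates the clusters and tests nothing. The call was made for 497 of 9097 genes in the higher direction (5.46%) and for 979 in the lower direction (10.8%), and the median ratio of all genes was 0.895 and 0.876.

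Of the 18 genes of the contractile apparatus, 14 were higher in cluster 9 than in cluster 6 and 0 were lower, with a median ratio of 4.33 and 5.17. Together they made up 478.5 and 481 UMIs per 10,000 in cluster 9, against 99.3 and 83.8 in cluster 6. *Acta2* (chr19:34241090-34255590, minus strand, GRCm38) differed 16.8 and 27.4 times, *Tagln* (chr9:45929619-45936058, minus) 9.08 and 14.8 times and *Myh11* (chr16:14194535-14291372, minus) 20.8 and 21.7 times. *Actg2*, the second smooth muscle actin, stood at 1.57 and 1.91 against 0.0783 and 0.0736. *Cnn1* (calponin, chr9:22099216-22109630, plus), which binds actin and restrains the myosin motor, stood at 2.71 [2.47 to 2.96] and 2.03 [1.83 to 2.25]. It had 1 UMI in cluster 6 of each library, which gave ratios of 554 (98.9 to 21910) and 386 (68.9 to 15290). *Cnn1* was thus near the limit of counting in cluster 6. Other contractile genes differed less. *Myl9* (chr2:156775420-156781658, plus) stood at 81.0 [79.7 to 82.3] and 75.9 [74.6 to 77.2] against 20.9 and 17.1, a ratio of 3.87 and 4.43. The tropomyosin gene *Tpm2* stood at 45.0 and 49.9 against 10.2 and 9.06, and *Mylk*, the kinase that switches myosin on, at 20.5 and 17.6 against 3.56 and 2.90. The other genes called were *Myl6*, *Tpm1*, *Lmod1*, *Synm*, *Flna* and *Actn1*. The remaining 4 stayed under 2 times: *Cald1* (caldesmon, ratio 1.18 and 1.29), *Smtn* (smoothelin, 1.53 and 1.59), *Vcl* (vinculin, 1.01 and 1.00) and *Des* (desmin, the intermediate filament of muscle). *Des* stood at 5.78 [5.43 to 6.15] and 5.84 [5.49 to 6.20] in cluster 9 and at 6.11 [5.78 to 6.46] and 5.26 [4.93 to 5.59] in cluster 6. Desmin therefore did not set the 2 clusters apart, being lower in cluster 9 in one library and higher in the other.

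**Figure D3:**
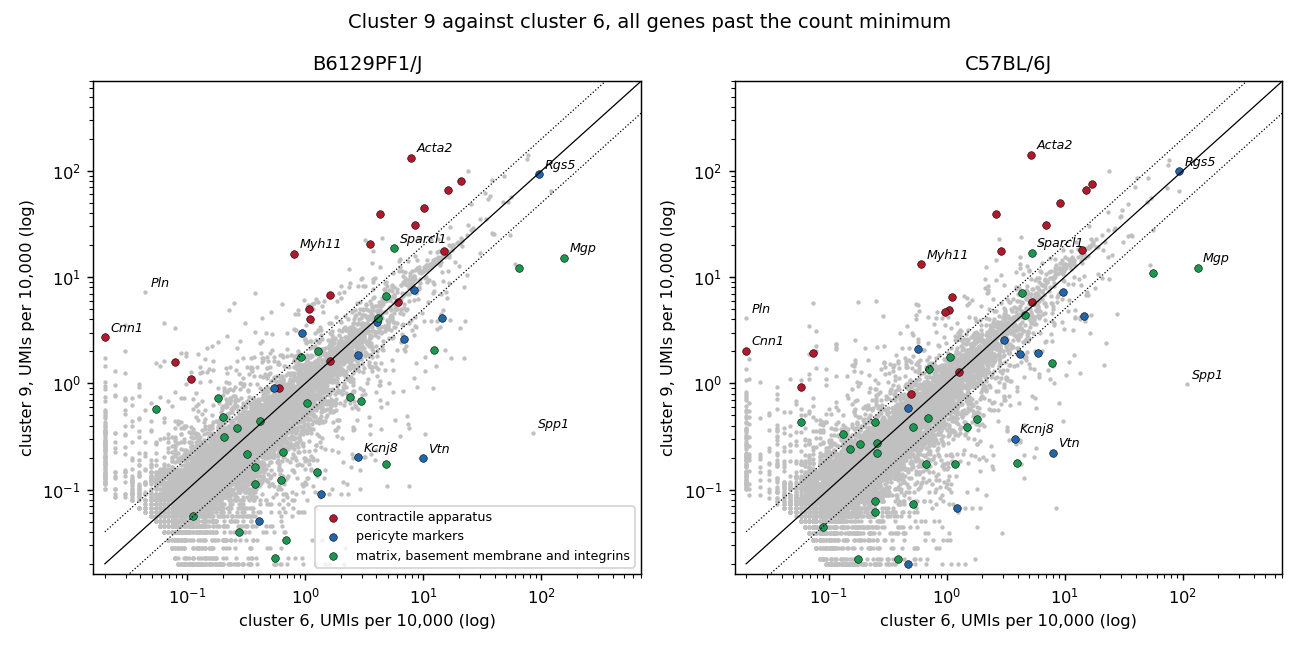
Level of each gene in cluster 9 against cluster 6, in UMIs per 10,000 on log axes, with 1 panel per library, a solid line at equal levels, dotted lines at 2 times and values under 0.02 drawn at 0.02. Coloured points are genes of the contractile apparatus, pericyte markers and matrix genes, grey points all others. Of the contractile genes 14 lie above the upper dotted line, *Rgs5* lies near the solid line, and *Vtn*, *Kcnj8*, *Mgp* and *Spp1* lie below the lower one.

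Among 16 regulators of contraction, 6 were higher and 0 lower, with a median ratio of 1.44 and 1.66. Of these, 4 belong to myosin phosphatase, the enzyme that relaxes smooth muscle, or to its inhibitor. The targeting subunit *Ppp1r12a* stood at 7.16 and 7.50 against 2.13 and 2.24, its relative *Ppp1r12b* at 2.41 and 2.14 against 0.411 and 0.416, the catalytic subunit *Ppp1cb* at 8.71 and 9.30 against 2.41 and 2.61, and the inhibitor *Ppp1r14a* at 4.64 and 3.61 against 1.40 and 0.789. Subunits and inhibitor were thus all higher. *Rock1*, a kinase that restrains the phosphatase, was 2.33 and 2.19 times higher, and *Rock2* did not differ by 2 times (0.978 and 0.923). *Pde3a*, which breaks down cyclic nucleotides, stood at 5.44 and 4.11 against 1.05 and 0.921. The 2 subunits of the nitric oxide receptor, *Gucy1a3* (ratio 0.696 and 0.683) and *Gucy1b3* (0.598 and 0.630), were below 1 without reaching the call.

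Of 18 genes of calcium handling, 16 passed the minimum count, and 7 of these were higher. The gene that differed most was *Pln* (phospholamban, chr10:53337667-53345987, plus), the brake on the calcium pump of the sarcoplasmic reticulum. It stood at 7.17 [6.78 to 7.57] and 4.09 [3.80 to 4.40] in cluster 9 and at 0.0441 and 0.0158 in cluster 6 (9 and 3 UMIs), which gave ratios of 163 (85.4 to 357) and 260 (88.5 to 1261). *Pln* was found in 73.7% and 56.6% of cluster 9 cells, against 1.47% and 0.267% of RPE cells. The pump itself, *Atp2a2*, stood at 5.34 and 4.71 against 1.11 and 0.836, and the calcium store protein *Casq2* at 1.29 and 1.09 against 0.108 and 0.0473. Pump, brake and store protein were all higher in cluster 9. The plasma membrane pumps *Atp2b1* (2.90 and 2.47 times) and *Atp2b4* (3.18 and 2.23 times) were also called, as were the T-type channel *Cacna1h* (42 and 32 UMIs) and the channel subunit *Cacnb2* (3.03 and 3.65 times). The L-type channel *Cacna1c*, the main route of calcium entry in SMCs, stood at 0.378 and 0.201 against 0.206 and 0.153 and was not called.

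Potassium channels separated the clusters in both directions. Of 9 genes of potassium and chloride channels with enough UMIs (11 listed), 4 were higher and 2 lower. *Kcna5*, a voltage-gated channel, stood at 1.62 [1.44 to 1.82] and 1.70 [1.52 to 1.90] in cluster 9 and at 0.0636 and 0.0210 in cluster 6. *Kcnmb1*, the smooth muscle subunit of the large-conductance calcium-activated channel, stood at 0.761 [0.638 to 0.900] and 0.714 [0.596 to 0.849] against 0.0392 and 0.0368. Its pore gene *Kcnma1* had 42 and 45 UMIs in cluster 9 and 1 in cluster 6 of each library, a ratio of 48.3 (8.21 to 1954) and 47.7 (8.14 to 1927). The 2 genes called lower form the ATP-sensitive channel of mural cells. The pore gene *Kcnj8* stood at 0.203 [0.142 to 0.281] and 0.301 [0.226 to 0.393] in cluster 9 against 2.81 [2.58 to 3.04] and 3.76 [3.49 to 4.05] in cluster 6, and the sulfonylurea receptor *Abcc9* at 0.0901 and 0.0670 against 1.36 and 1.22. Calcium-activated and voltage-gated channel genes were thus on the side of cluster 9 and the ATP-sensitive channel on the side of cluster 6, in both libraries.

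Of 31 listed receptors of vasoactive signals, 18 passed the minimum count against cluster 6, and 4 were higher and 4 lower. *Npy1r* (chr8:66697192-66706792, plus), a receptor of the sympathetic transmitter neuropeptide Y, stood at 1.24 [1.08 to 1.42] and 0.915 [0.780 to 1.07] in cluster 9 and at 0.0294 and 0.0368 in cluster 6, a ratio of 42.2 and 24.9. *P2rx1* (chr11:72999103-73015200, plus), the ATP-gated channel of sympathetic junctions, stood at 0.738 [0.617 to 0.876] and 0.731 [0.611 to 0.867]. It had 3 UMIs in cluster 6 of B6129PF1/J, a ratio of 50.3 (16.8 to 247), and 0 in that of C57BL/6J, which made it at least 46.3-fold higher against a floor of 3 UMIs. *Npy1r* and *P2rx1*, receptors of cotransmitters of sympathetic nerves, were thus on the side of cluster 9. The adrenergic receptors of the list did not share this. *Adra1b* stood at 0.0958 and 0.234 against 0.0685 and 0.0736 and was not called, and *Adra2b* was called lower (6 and 13 UMIs against 19 and 29). *Ramp1*, a part of the receptor of the dilator peptide CGRP, stood at 0.772 and 0.837 against 0.0245 and 0.0105, and it was as high or higher in the hematopoietic cluster 11, with 1.13 and 0.874. *Vipr2*, a receptor of vasoactive intestinal peptide, had 84 and 38 UMIs against 8 and 2, and 16.6% and 7.34% of cluster 9 cells had a UMI of it beside 16.2% and 6.68% of RPE cells. A UMI of *Vipr2* therefore did not mark a cluster 9 cell. The genes called lower were *Agtr1a* (angiotensin II receptor), *Adra2b*, *Avpr1a* (vasopressin receptor) and *Adora2a*. *Agtr1a* stood at 0.163 [0.109 to 0.235] and 0.0670 [0.0346 to 0.117] against 2.44 and 1.64. *Ednra*, the endothelin receptor of mural cells, stood at 1.83 [1.64 to 2.04] and 1.56 [1.39 to 1.76] against 1.56 [1.39 to 1.74] and 1.59 [1.41 to 1.78], and the 2 clusters were not separated by it.

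**Figure D4:**
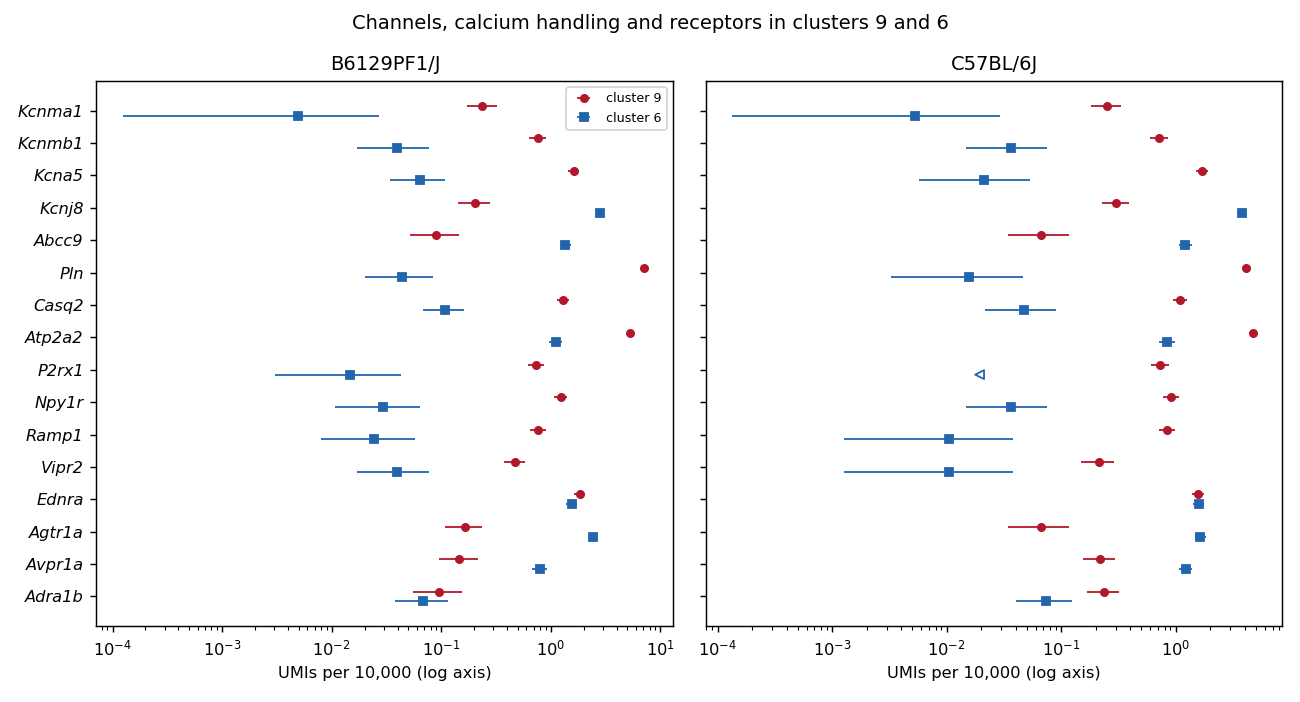
UMIs per 10,000 of channel, calcium handling and receptor genes in cluster 9 and cluster 6 on a log axis, for each library, with Poisson 95% intervals as bars and open triangles for the upper limit of a count of 0. *Kcna5*, *Kcnmb1*, *Npy1r* and *P2rx1* are higher in cluster 9 and *Kcnj8*, *Abcc9* and *Agtr1a* in cluster 6, while the intervals of *Ednra* overlap in both libraries.

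Of 25 transcription factors and Notch pathway genes with enough UMIs, 8 were higher and 4 lower, with a median ratio of 1.03 and 1.00. *Myocd* (myocardin), the coactivator that switches on the contractile programme, stood at 0.366 [0.283 to 0.467] and 0.312 [0.236 to 0.406], with 3 and 1 UMIs in cluster 6 and ratios of 24.9 (8.16 to 124) and 59.4 (10.2 to 2387). Its partner *Srf* had 71 and 40 UMIs and was 2.82 and 2.23 times higher. *Mef2c* stood at 8.09 and 7.84 against 2.36 and 2.12. The others called higher were *Mef2d*, *Hey2*, *Tbx2*, *Foxc2* and *Klf4*. The Notch targets split, since *Hey2* was 3.92 and 4.56 times higher while *Heyl* stood at 1.41 and 1.13 against 3.56 and 3.23. The receptor *Notch3* stood at 3.78 and 2.54 against 4.04 and 3.08 and was not called. *Tbx18*, *Ebf1* and *Zeb2* were lower along with *Heyl*. With cells thinned to 1700 UMIs the calls of *Srf* (1.69), *Klf4* (1.995) and *Tbx18* (0.580) were lost, as given by the less extreme ratio of both libraries.

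Pericyte markers were divided. Of the 12 in the files, 1 was higher (*Mcam*, an adhesion molecule) and 6 were lower than in cluster 6, with a median ratio of 0.524 and 0.391. *Rgs5* (chr1:169655501-169695813, plus), a brake on G protein signals that is often used to name pericytes, stood at 92.4 [91.0 to 93.8] and 99.3 [97.8 to 100.8] in cluster 9 and at 95.9 [94.6 to 97.3] and 93.0 [91.6 to 94.3] in cluster 6. The order was opposite in the 2 libraries, so *Rgs5* did not set the clusters apart. *Vtn* (vitronectin, a matrix protein) stood at 0.197 [0.137 to 0.274] and 0.223 [0.159 to 0.304] against 9.86 [9.43 to 10.3] and 7.94 [7.54 to 8.35]. *Pdgfrb*, the receptor through which pericytes are recruited, stood at 2.61 and 1.94 against 6.90 and 5.90, and *Ndufa4l2* at 4.14 and 4.32 against 14.5 and 14.5. The other genes called lower were *Kcnj8*, *Abcc9* and *Anpep*. *Cspg4* (ratio 1.68 and 1.25) and *Cox4i2* (0.909 and 0.750) did not reach the call in either direction.

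Matrix genes lay largely with cluster 6. Of 28 genes of matrix, basement membrane and integrins with enough UMIs, 3 were higher and 13 lower in cluster 9, and of 7 fibroblast markers 0 were higher and 6 lower. *Mgp*, an inhibitor of calcification, stood at 15.2 [14.6 to 15.8] and 12.2 [11.7 to 12.8] against 155.7 and 133.5. *Sparc*, a collagen-binding protein, stood at 12.1 and 10.9 against 64.2 and 55.9, and its relative *Sparcl1* showed the opposite order with 18.6 and 16.9 against 5.66 and 5.26. The collagens *Col4a1*, *Col4a2* and *Col8a1* and the laminin *Lamb1* were among the genes called lower, and the laminin *Lama5* (10.6 and 7.42 times) and the crosslinking enzyme *Lox* (2.39 and 2.55 times) among those called higher. *Eln* (elastin) had 79 and 49 UMIs and ratios of 1.07 and 1.06.

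Of 22 genes of secreted signals with enough UMIs, 5 were higher and 11 lower. *Nov* (CCN3, a matricellular signal) stood at 3.66 [3.39 to 3.96] and 4.22 [3.92 to 4.53] against 0.308 and 0.700. *Tgfb2*, *Tgfb3* and *Bmp2*, all of the TGF-beta family, were 2.84 and 2.78, 2.66 and 3.16, and 3.85 and 2.45 times higher, while *Bmp4* of the same family was lower with 6 and 2 UMIs. *Fgf1* was higher than in cluster 6 (10.0 and 8.26 times), and its highest cluster was cluster 10, the melanocytes. The genes called lower included the chemokine *Cxcl12* (2.08 and 1.85 against 15.3 and 12.0), the endothelin *Edn3* (1.45 and 1.24 against 12.9 and 13.4), *Igf1*, *Angpt2* and *Ccl2*.

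The Hedgehog pathway was near the limit of counting in cluster 9. Of 11 genes listed, 5 had enough UMIs, 0 were higher and 1 was lower. *Gli1*, a target and effector of the pathway, had 6 and 3 UMIs in cluster 9 and stood at 0.0338 [0.0124 to 0.0736] and 0.0167 [0.00345 to 0.0489] against 0.206 and 0.174 in cluster 6. *Ptch1*, the receptor and a further target, had 27 and 21 UMIs and stood at 0.152 and 0.117 against 0.284 and 0.158. *Gas1*, a coreceptor, stood at 3.04 and 4.20 against 3.34 and 4.31. In both libraries *Gli1* was thus 6.08 (2.57 to 17.5) and 10.4 (3.25 to 52.9) times lower than in cluster 6, and *Gas1* was about level.

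Immediate-early and heat shock genes, which respond to tissue dissociation, did not separate the 2 clusters as a list. Of 14, 1 was higher (*Atf3*, 8.16 and 7.29 against 2.81 and 2.26) and 0 lower, and their sum was 230.1 and 226 in cluster 9 against 212 and 215 in cluster 6. Of 5 proliferation genes, 1 had enough UMIs for the comparison (*Pcna*, ratio 0.821 and 0.796), and *Mki67* had 0 UMIs in cluster 9 of both libraries, where 0 of 1774941 UMIs allows up to 0.0169 and 0 of 1792357 up to 0.0167 per 10,000 by the floor of 3 UMIs.

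Against all other cells together, 740 of 12720 genes were higher in cluster 9 by 2 times in both libraries (5.82%) and 3047 lower (24.0%), with a median ratio of 0.814 and 0.792 over all genes. Of the contractile apparatus, 17 of 18 genes were higher, all but *Smtn*, and 15 of 18 were highest of the 13 clusters in both libraries, as were 479 of 12720 genes (3.77%). Of 16 regulators of contraction 13 were higher, of 16 calcium genes 11, of 10 channel genes 7 with 2 lower, and of 12 pericyte markers 6 with 4 lower. *Rgs5*, *Cspg4*, *Mcam*, *Higd1b*, *Cox4i2* and *Notch3* were thus high against the tissue, although only *Mcam* of these was called against cluster 6. Of 26 transcription factors and Notch pathway genes 11 were higher and 2 lower. Other lists leaned the other way. Of 25 receptors of vasoactive signals 7 were higher and 11 lower, and of 33 matrix genes 8 and 15. Of 26 secreted signals 8 were higher and 12 lower, of 11 Hedgehog genes 1 and 6, and of 9 fibroblast markers 0 and 8. Of 9 EC markers and 7 RPE markers, all were lower.

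The genes that stood out most from every other single cluster were ranked by the ratio to the highest other cluster, taking the lower of both libraries, among genes of at least 1 UMI per 10,000 in both. The first 15 were *2210407C18Rik* (58.7), *Fbxl22* (50.3), *Pln* (31.0), *Cnn1* (24.6), *Myh11* (20.8), *Tesc* (18.6), *Rbm24* (17.9), *Acta2* (16.8), *Slc4a3* (14.8), *Olfr558*, *Nrgn*, *Nrip2*, *Casq2*, *Asb2* and *Gpr20* (9.76). *Fbxl22* stood at 3.50 [3.23 to 3.79] and 3.44 [3.17 to 3.72] in cluster 9 and at 0.0294 and 0.0684 in cluster 6. *Tesc* (tescalcin, a calcium-binding protein) stood at 7.01 [6.63 to 7.41] and 5.83 [5.48 to 6.19] against 0.377 and 0.179. *Olfr558*, an odorant receptor gene, stood at 5.72 [5.38 to 6.09] and 4.27 [3.97 to 4.58] against 0.250 and 0.289. *Rbm24*, an RNA-binding protein of muscle, and *Asb2*, a part of a ubiquitin ligase, stood at 1.45 and 1.23 and at 3.29 and 3.09 in cluster 9. Among the 15 were thus 3 contractile genes and 2 calcium genes of the lists, and 10 genes on no list used here.

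Ranked against cluster 6 alone, the 10 highest genes were *Cnn1*, *Pln*, *Timp4*, *Ptgis*, *2210407C18Rik*, *Sh3bgr*, *Fbxl22*, *Asb2*, *Net1* and *Kcna5*. *Ptgis*, the enzyme that makes prostacyclin, stood at 2.01 and 1.94 against 0.0294 and 0.0158, and in RPE cells 50.1% and 33.2% had a UMI of it against 37.5% and 24.2% in cluster 9. Stromal cluster 7 had more of it in B6129PF1/J (2.99) and less in C57BL/6J (1.63), so it did not set cluster 9 apart from that cluster in both libraries. Against all other cells together it was 3.58 and 5.33 times higher. Among the 10 lowest were *Spp1*, *Svopl*, *Coch*, *Pla1a*, *Lgi1*, *Ccl11*, *Vtn*, *Plac8* and *Col10a1*. *Spp1* (osteopontin) stood at 0.338 [0.258 to 0.435] and 0.976 [0.837 to 1.13] against 84.1 and 108, or 249 and 111 times lower. *Svopl* had 0 and 2 UMIs in cluster 9 against 298 and 271 in cluster 6.

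Cells within cluster 9 varied widely in *Acta2*. A cell held a median of 60 (quartiles 32 to 90) and 51 (30 to 75.5) UMIs of it, up to 211 and 243, and 3 and 5 cells held 0. To compare cells at 1 depth, each was thinned to 1700 UMIs, which left out 0 cells, and the cells in the lowest quartile of *Acta2* (101 and 119 cells, at most 14 and 15 UMIs) were set against those in the highest (94 and 119 cells, at least 30 and 31 UMIs). These are ranges of 1 gene and not types of cell, as 30 and 34 cells lay within 1 UMI of the lower limit and 38 and 27 of the upper. Levels in these cells are per 10,000 UMIs other than *Acta2*. A gene was called at 1.5 times in both libraries, which held for 209 of 2239 genes in the higher direction (9.33%) and 184 in the lower (8.22%).

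Of the 17 other contractile genes with enough UMIs, 14 were higher in the cells high in *Acta2* and 0 lower. Their sum went from 184.7 to 481 and from 190.1 to 477 per 10,000, a ratio of 2.61 and 2.51, with a median of 30 and 30 UMIs per cell in the low and 78.5 and 76 in the high quartile. *Tagln* went from 14.7 [12.98 to 16.7] to 64.9 [61.0 to 69.1] and from 18.8 [17.0 to 20.8] to 60.1 [56.7 to 63.6]. *Cnn1* had 3 UMIs in the low quartile of each library and 100 and 82 in the high one. *Pln* (3.96 and 4.36 times), *Npy1r* (4.84 and 2.34 times) and *Kcna5*, *Kcnmb1* and *P2rx1* were also higher. Of 16 regulators of contraction 4 were higher (*Ppp1r12b*, *Ppp1r14a*, *Ppp1cb* and *Rock1*) and 2 lower (*Rgs2* and *Rgs5*), and their sum stood at 0.659 and 0.819 times that of the low quartile. *Rgs5*, which is also on the list of pericyte markers, made up most of this sum (174.0 and 164.4 per 10,000) in the low quartile. The sum of the regulators therefore mainly followed *Rgs5* and does not describe the other regulators. *Des* (0.928 and 1.06), *Cald1* (0.978 and 1.25) and *Notch3* (0.952 and 0.949) did not reach the call.

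In the other lists the cells low in *Acta2* held more of some genes and less of others. Of 7 pericyte markers with enough UMIs, 2 were lower in the high quartile (*Rgs5* and *Ndufa4l2*) and 1 was higher (*Mcam*, 4.42 and 2.78 times). Of 10 matrix genes, 3 were lower (*Bgn*, *Mgp* and *Sparc*) and 5 higher (*Col4a1*, *Lamb2*, *Sparcl1*, *Tinagl1* and *Itga7*), with sums of 0.926 and 0.992 times, and of 2 fibroblast markers 0 were called. *Rgs5* went from 125.8 [120.5 to 131] in the low to 53.4 [49.8 to 57.1] in the high quartile of B6129PF1/J and from 118 [113 to 123] to 77.1 [73.3 to 81.1] in C57BL/6J. *Ndufa4l2* went from 7.25 to 2.05 and from 6.96 to 2.73, *Mgp* from 33.1 to 7.29 and from 27.0 to 6.33, and *Gas1* from 7.55 to 1.47 and from 9.54 to 1.97. The pericyte marker sum was 0.512 and 0.669 times that of the low quartile, and *Rgs5* alone gave 125.8 of the 150.8 per 10,000 of this sum in the low quartile of B6129PF1/J. *Emcn* (endomucin), an EC marker that cluster 6 also carried, went from 4.80 to 0.831 and from 6.46 to 0.557. Of 13 immediate-early and heat shock genes 7 were lower in the high quartile (*Jun*, *Junb*, *Jund*, *Nr4a1*, *Zfp36*, *Btg2* and *Hspa1a*) and 0 higher, and the sum of this list stood at 0.642 and 0.560 times that of the low quartile. Other measures moved along with *Acta2*: the median depth before thinning was 3789 and 3185 UMIs in the low and 4885 and 4110 in the high quartile, the mitochondrial share 4.50% and 4.10% in the low and 7.12% and 6.25% in the high, and possible doublets numbered 8 and 3 in the low and 3 and 0 in the high. Their part in the differences was not tested.

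**Figure D5:**
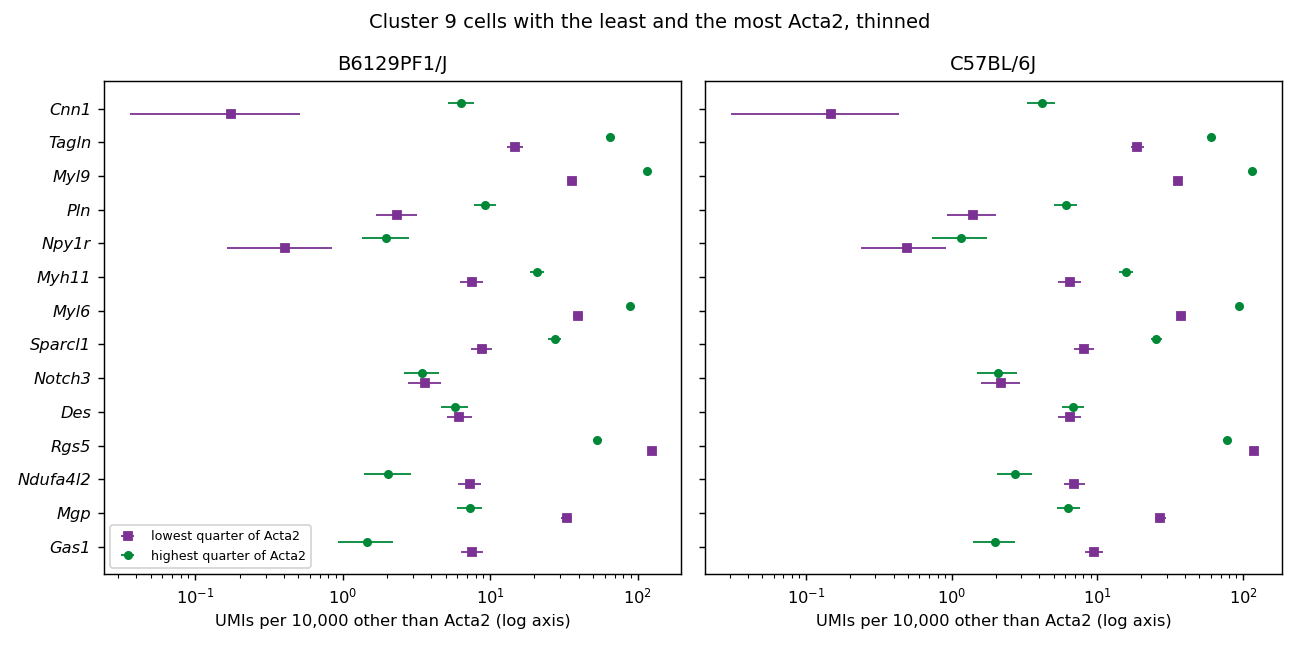
UMIs per 10,000 UMIs other than *Acta2* of named genes in the cluster 9 cells of the lowest and the highest quartile of *Acta2* after thinning each cell to 1700 UMIs, on a log axis, for each library, with Poisson 95% intervals as bars. *Tagln*, *Cnn1* and *Pln* are higher in the high quartile and *Rgs5*, *Mgp* and *Gas1* in the low one, in both libraries.

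Between the 2 strains, cluster 9 differed by 2 times in 227 of 8958 genes with the higher value in B6129PF1/J (2.53%) and in 169 with the lower (1.89%). With each cell thinned to 1700 UMIs, the counts were 165 and 217, so the balance of the directions turned around. Strain, library and depth cannot be told apart here. Of these genes, 26 of the 227 and 10 of the 169 differed by 2 times in the same direction in all other cells too. *Gdpd3*, a lysophospholipase D gene, had 183 UMIs (1.03 [0.887 to 1.19]) in B6129PF1/J and 1 in C57BL/6J, and 154 and 2 in cluster 6. *Gm10116*, *Gm10709* and *Gm8797* were 35.7, 26.3 and 10.9 times higher in B6129PF1/J, and *Cap1* 4.06 times, with differences of over 2 times in the same direction in cluster 6. Reads of such predicted genes can be shared with near-identical copies, so their counts are uncertain. Among the 5 lowest were *Plat* (0.427), *Ftl1* (0.429), *Lamtor3* (0.483) and *Pttg1* (0.508, which did not reach the call). In cluster 6 and in all other cells, *Ftl1* was at 0.467 and 0.476, *Lamtor3* at 0.552 and 0.601 and *Pttg1* at 0.411 and 0.440. The counts of these genes were thus lower in B6129PF1/J outside cluster 9 too, while *Plat* was at 0.785 and 0.811 there. Where *Ftl1* was lower in B6129PF1/J, *Gm10116* was higher, in cluster 9, in cluster 6 and in all other cells. Whether *Ftl1* and *Gm10116* share reads was not tested, so the lower count of *Ftl1* is uncertain as well. Of 196 genes of the lists with enough UMIs, 8 were higher in B6129PF1/J and 4 lower. The 8 were *Agtr1a*, *Vipr2*, *Fbln1*, *Itga8*, *Ccl2*, *Ctgf*, *Rgr* and *Ttr*, and the 4 were *Adra1b*, *Emilin1*, *Pecam1* and *Cldn5*, and 0 of these 12 belong to the contractile apparatus. *Ttr*, an RPE marker, stood at 8.68 and 3.23 in cluster 9, and at 223 and 142 in all other cells. *Adra1b*, an adrenergic receptor of vessels, had 17 and 42 UMIs and stood at 0.0958 and 0.234.

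In bulk RPE/choroid the deletion of *Ihh* in ECs was examined on the average FPKM (a level scaled to the length of the transcript and the depth of the library) of 3 libraries per genotype, which carry no spread. *Ihh* was at 1.53 in wild type and 0.454 in deletion tissue, and *Gli1* at 9.40 and 3.15. Among 11400 genes of at least 1 FPKM, 240 were 1.5 times higher after deletion (2.11%) and 286 lower (2.51%), with a median ratio of 0.975. *Acta2* was at 31.7 and 30.6, *Tagln* at 21.2 and 16.6 and *Myh11* at 3.75 and 3.47. Of 16 contractile genes of at least 1 FPKM, 1 was called, *Lmod1* with 3.86 and 5.94, and their median ratio was 0.972. Of 11 pericyte markers 0 were called, with a median ratio of 0.895. Of the 15 genes that stood out most in cluster 9, 6 had at least 1 FPKM, and *Tesc* was called lower with 1.40 and 0.596. All 6 had ratios below 1, up to 0.964 for *Acta2*, with a median ratio of 0.769, and with averages alone this could not be set against a spread. Of the same 15 under 1 FPKM, *Rbm24* (1.72), *Casq2* (1.205) and *Cnn1* (1.001) had ratios above 1. *2210407C18Rik*, *Fbxl22*, *Pln*, *Olfr558* and *Nrip2* had ratios below 1. The study compared its own list of SMC-enriched genes in these data and found their levels alike in both genotypes. In such tissue, the number of SMCs and the RNA per SMC cannot be told apart.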

How the data were processed

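Cells of RPE/choroid were profiled with 10x Genomics 3′ RNAseq in 1 library per strain. The authors made UMI counts with Cell Ranger on mm10, filtered cells and genes with Seurat 2.1 and deposited the raw counts with metadata that give the 13 clusters, found on aligned data of both libraries. In the deposited tables the lowest cell had 1717 UMIs and 604 genes and the highest mitochondrial fraction, written by the authors as a fraction, was 9.98% of UMIs. The tables held fewer cells than the study states for both libraries, and no doublet removal is given in the sources used here. Bulk FPKM values were made by the authors with STAR 2.4.0f1 and Cufflinks 2.0.2 and deposited as averages of 3 libraries per group. The deposited fold changes and adjusted p-values of the bulk tables were not used.

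The counts were summed here per cluster and library and scaled to 10,000 UMIs (Python 3.11.15 with pandas 2.3.3, scipy 1.17.1, numpy 2.4.6 and matplotlib 3.10.9). Ratios needed at least 20 UMIs in both sides together in each library and were called at 2 times in both libraries. A ratio against 0 UMIs used a floor of 3 UMIs. Quartiles of *Acta2* were taken after random thinning to 1700 UMIs per cell and called at 1.5 times. Bulk genes needed 1 FPKM in the higher group and were called at 1.5 times. No test was made, since the strains had 1 library each and the clusters compared were found on the same genes. The scripts were checked on simulated counts. Members and the 21 gene lists were chosen with earlier results of these data known. Beyond the listed genes, those named were the 15 highest against the highest other cluster, the 10 highest and 10 lowest against cluster 6 and the 5 highest and 5 lowest between strains, each with at least 1 UMI per 10,000 on the higher side. Of 281 listed genes 270 were in the files. Some genes that these rules name are not reported here. Promoter windows are from RefSeq (GRCm38.p6) and gene positions from GENCODE on GRCm38. The alternatives tried were other ratios (1.5 and 3), other minimum counts (1 and 100 UMIs), single libraries, thinned cells, means over cells, removal of possible doublets and removal of mitochondrial UMIs.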

Additional observations from a re-analysis of the deposited data

Results flagged for a closer look

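For 6 genes the ratio of cluster 9 to cluster 6 passed 2 times in opposite directions in the 2 libraries. The difference between the libraries was not tested, since there was 1 library per strain. *Ptprb* was at 2.88 in B6129PF1/J and 0.354 in C57BL/6J (20 and 17 UMIs in cluster 9), *Ly6a* at 2.30 and 0.438 (22 and 31 UMIs), *Slc16a3* at 2.30 and 0.461 (16 and 10 UMIs) and *Micall1* at 2.56 and 0.499 (20 and 8 UMIs). *Champ1* was at 0.493 and 2.23 (6 and 21 UMIs) and *Igfbp6* at 0.288 and 2.27 (4 and 15 UMIs). *Ptprb* and *Ly6a* were highest in the EC cluster 4 in both libraries and *Igfbp6* in stromal cluster 7.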

How the results depend on the processing

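No paired analysis was possible because no result came from a test: both libraries hold both clusters, but these were found on the genes compared, and each strain had 1 library. With 1 library per group, counts give the precision of a level and say nothing of the spread between animals, and genes of a few UMIs in cluster 6 have ratios with wide intervals. Of 1344 recomputed ratios of 336 gene results, 1312 kept their direction and side of the threshold, 32 kept their direction and fell below it, and 0 reversed. The calls against cluster 6 that were lost under at least 1 setting were those of *Srf*, *Tbx18*, *Klf4*, *Vegfa* and *Cnp*. Against all other cells they included those of *Trpc6*, *Mkl2*, *Mef2d*, *Smad3*, *Col4a1*, *Lamb2*, *Itga8*, *Angpt1*, *Vegfa*, *Ntf3*, *Gli2*, *Btg2*, *Gm10116* and *Ftl1*. Levels in B6129PF1/J and C57BL/6J moved as follows. Thinned to 1700 UMIs, *Acta2* was 126.2 and 138.5, *Tagln* 36.95 and 37.45, and *Myh11* 12.2 in C57BL/6J. As a mean over cells, *Acta2* was 127.7 and 137.6 and *Myh11* 15.4 and 12.58. Without mitochondrial UMIs, *Acta2* was 141.5 and 150.4, *Tagln* 41.52 and 41.25, and *Myh11* 17.72 and 13.9. Without possible doublets, *Acta2* was 134.3 in B6129PF1/J. Against cluster 6, the genes called higher and lower numbered 815 and 1744 at 1.5 times, 303 and 525 at 3 times, 906 and 1925 with a minimum of 1 UMI and 256 and 472 with 100 UMIs. B6129PF1/J alone gave 750 higher and C57BL/6J alone 1526 lower. Against all other cells, the genes called higher numbered 1146 at 1.5 times and 439 at 3 times, and those called lower 1916 with a minimum of 100 UMIs. Between strains, the genes higher and lower in B6129PF1/J numbered 845 and 706 at 1.5 times, and 22 and 15 with a minimum of 100 UMIs. Splitting the cells at the median of *Acta2* in place of the quartiles gave contractile sums of 1.79 and 1.70 times and pericyte sums of 0.646 and 0.744 times. Without thinning, the contractile sum was 2.89 times in B6129PF1/J and the pericyte sums were 0.476 and 0.605 times.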

Other observations

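The series also holds choroidal GLI1+ cells grown in culture from Gli1GFP/+ mice (SWR/J by the labels, crossed with BALB/c by the methods) and treated for 24 h with DMSO or with 100 nM SAG, an agonist of the Hedgehog pathway. As averages of 3 libraries per treatment, *Acta2* was at 335 FPKM with DMSO and 356 with SAG, and *Tagln* at 277 and 276. *Cnn1* was at 6.66 and 6.38 and *Myh11* at 0.897 and 0.765. *Pln* was listed at 0 in both, *Rgs5* was at 0.321 and 0.303 and *Des* at 0.193 and 0.197. The response of the pathway is seen in *Gli1*, at 0.0280 and 3.65, and *Ptch1*, at 1.13 and 10.1.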
